A study of Drosophila melanogaster with 2 samples.

Results

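Myc, Max, Mnt, Mondo and bigmax, the 5 Drosophila genes of the Myc and Mondo transcription factor network, were examined for peaks of the zinc finger protein shuttle craft (stc), a relative of human NFX1. The genes were chosen by name and, since peaks at them had been seen before, partly by peak values. They are 5 of the 13945 protein-coding genes of the Ensembl annotation on the main chromosomes. Every peak with its summit in the gene body or within 5 kb on either side was taken, which gave 15 of the 3831 peaks of the conservative list. All counts and signals at these genes are therefore given as a description, without a test.

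The data came from chromatin immunoprecipitation and sequencing (ChIP-seq) of whole Drosophila melanogaster embryos of 0 to 24 h, an age span that covers all of embryogenesis. The embryos carried an stc-eGFP transgene, and a GFP antibody was used to pull down the fusion protein. There was 1 group of 2 biological replicates, no second genotype, age or treatment, and the control experiment that the labels name was not analysed here. Whole embryos mix all tissues, so a peak does not tell which cells carried it.

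Myc is the bHLH-zipper activator of ribosome production and cell growth, and binds the E box CACGTG only as a dimer with Max. Mnt also pairs with Max and represses at such sites, opposing Myc. Mondo, the fly counterpart of the mammalian carbohydrate sensors ChREBP and MondoA, pairs with the Max-like protein bigmax and governs the response to dietary sugar.

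Each peak is an interval with a summit and a signal, the authors' own value for its height, with no scaling stated. The irreproducible discovery rate (IDR) measures how well a peak's rank repeats between a pair of lists, and every peak of the 4 thresholded lists had a score that stands for an IDR of 0.01 or less. The conservative list was made from the comparison of the replicates, and each of its peaks carries the signal of 1 input peak from each replicate. The thresholded list of replicate 1 held 2782 peaks, that of replicate 2 held 3806, and the larger list of the series held 5084. The lists carry no read depth, which is therefore unknown.

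The sequences below lie under the peaks that the results turn on: both Myc peaks, the Max peak in its intron, the strongest Mnt and bigmax peaks, a second strong Mnt peak and the Mondo peak. They are on the dm6 build and are written 5′ to 3′ on the strand of the member gene. Capitals mark any of 8 searched motifs on either strand. The motifs were the E box CACGTG bound by the network, its weaker variant CACGCG, and the DNA replication-related element TATCGATA. Searched too were the core of the fly core promoter motif 1, GGTCACAC, and the repeat unit GAGAG of the GAGA factor. The last were the TATA box TATAAA, the site CAGGTAG of the early embryonic factor Zelda, and CGATA, the core of the BEAF-32 insulator site, which also lies within the DNA replication-related element. Unless said otherwise, a sequence covers 50 bp on either side of the summit. The Max window, chr3L:19263557-19263765 (minus strand), runs on to the base beside a start site of the divergent gene Mettl5, and the Mnt window, chrX:3687941-3688234 (plus strand), runs on to the base before an Mnt start site. The bigmax window, chr3R:27288527-27288768 (minus strand), is the whole interval between the start sites of Hmu and bigmax. The others are chrX:3381120-3381220 and chrX:3381847-3381947 for Myc (plus strand), chrX:3692273-3692373 for Mnt (plus strand) and chr2L:21310326-21310426 for Mondo (minus strand).
Myc intron 2, upstream peak: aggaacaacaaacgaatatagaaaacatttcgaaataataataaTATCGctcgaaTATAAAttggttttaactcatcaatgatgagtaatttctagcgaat
Myc intron 2, downstream peak: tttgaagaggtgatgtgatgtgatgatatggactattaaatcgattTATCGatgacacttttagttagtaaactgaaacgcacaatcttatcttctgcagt
Max intron 2: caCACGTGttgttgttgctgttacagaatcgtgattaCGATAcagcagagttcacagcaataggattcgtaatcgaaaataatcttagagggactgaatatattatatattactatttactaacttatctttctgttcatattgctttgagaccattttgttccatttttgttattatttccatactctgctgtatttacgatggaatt
Mnt inner promoter: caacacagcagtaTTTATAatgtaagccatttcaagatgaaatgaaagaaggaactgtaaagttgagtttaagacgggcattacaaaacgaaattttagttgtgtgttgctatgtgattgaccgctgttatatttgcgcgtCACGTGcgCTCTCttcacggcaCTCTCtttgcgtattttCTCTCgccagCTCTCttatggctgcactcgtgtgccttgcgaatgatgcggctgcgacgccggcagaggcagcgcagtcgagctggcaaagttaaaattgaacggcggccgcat
Mnt downstream intron: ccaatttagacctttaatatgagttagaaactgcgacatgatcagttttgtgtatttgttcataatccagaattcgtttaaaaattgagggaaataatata
Mondo upstream: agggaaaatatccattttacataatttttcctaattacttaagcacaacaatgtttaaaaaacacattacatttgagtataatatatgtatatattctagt
bigmax to Hmu: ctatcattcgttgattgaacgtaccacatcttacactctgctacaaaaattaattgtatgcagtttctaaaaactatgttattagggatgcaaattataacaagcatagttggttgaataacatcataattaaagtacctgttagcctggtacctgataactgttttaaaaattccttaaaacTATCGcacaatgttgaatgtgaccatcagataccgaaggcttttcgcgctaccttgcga

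In the conservative list all 5 genes had at least 1 summit in their window, against 38.8% of all protein-coding genes. Longer windows hold a summit more often. Among genes with a window at least as long, the share was 61.6% for Myc, 45.7% for Max and 62.9% for Mnt. For Mondo it was 62.0% and for bigmax 42.9%. In the larger list it was also all 5, against 46.3%. In the list of replicate 1 it was 4 of 5, Max having none, against 32.8%, and in that of replicate 2 it was 4 of 5, Mondo having none, against 39.0%. The 5 windows together spanned 125.49 kb and held 15 conservative summits, 17 larger-list summits, 8 of replicate 1 and 14 of replicate 2. That is 1.2 conservative summits per 10 kb, where the main chromosomes, which unlike the windows are not centred on genes, had 0.286. By gene it was 2.01 at Mnt, 1.79 at bigmax, 1.67 at Max, 0.701 at Myc and 0.294 at Mondo. Mnt alone supplied 8 of the 15.

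**Figure D1:**
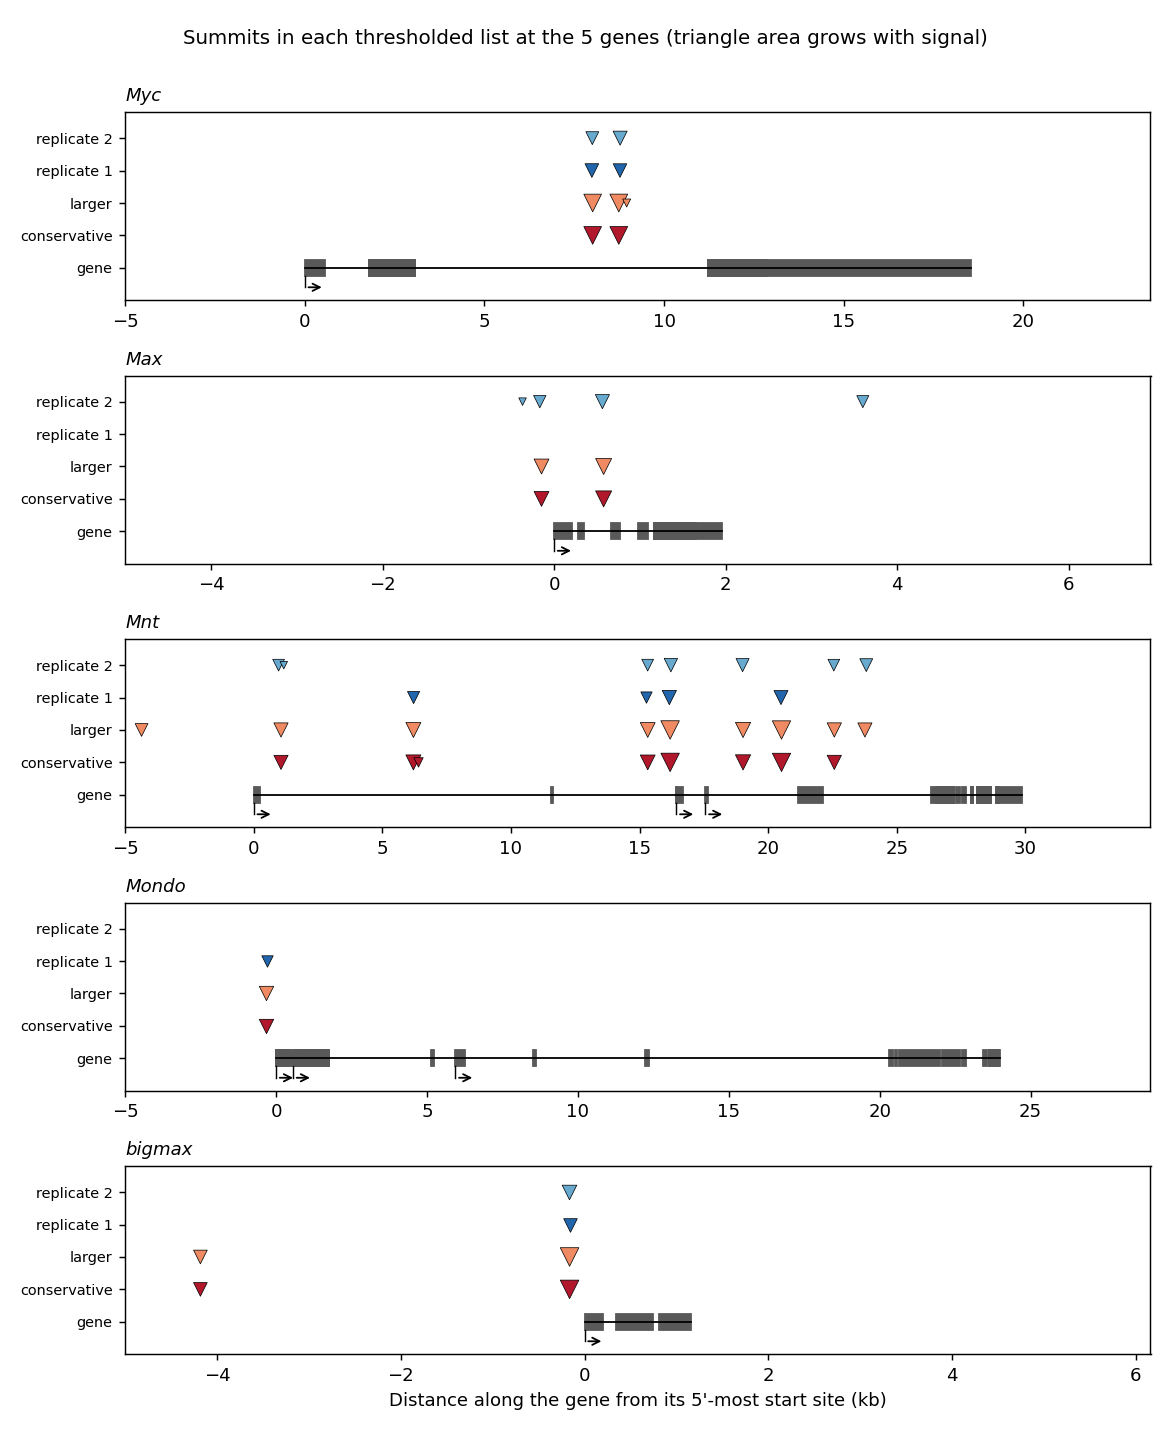
Positions of every summit in the 4 thresholded lists at Myc, Max, Mnt, Mondo and bigmax, in kb from the 5′-most start site and drawn in the direction of transcription. Grey boxes are exons of all transcripts, arrows are start sites, and triangle area grows with signal. The same pair of Myc summits stands in every list, with a further weak one in the larger list, Max has none in replicate 1, Mnt has 8 in the conservative list and the Mondo gene body is empty in all 4 lists.

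Myc (FBgn0262656, X:3373159-3391697, plus strand) had both of its conservative summits deep in intron 2 and none at its promoter. The summits lay 8011 and 8738 bp downstream of the single annotated start site, 727 bp apart, at X:3381170 and X:3381897. The intron is 8.15 kb long and is shared by both annotated transcripts. The non-coding gene lncRNA:CR44999 also covers both positions, so that the peaks cannot be assigned to 1 of these genes by position.

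The upstream Myc peak had a signal of 161.8 in the conservative list, and its input peaks had 85.3 in replicate 1 and 72.0 in replicate 2. The downstream peak had 163.8, with 82.7 in replicate 1 and 91.0 in replicate 2. The replicates thus ranked the pair in opposite order, and the peaks stood close together in both. Both overlapped a thresholded peak of each replicate, at an IDR of 0.0003 and 0.00014. They ranked 1327 and 1298 of 3831 conservative peaks, so that about 34.6% and 33.9% of the list was as strong or stronger. The larger list had a further summit in the same intron at X:3382116, with a signal of only 9.2.

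At the Myc promoter, a peak below the threshold stood in 1 replicate. Replicate 2 had a ranked peak 57 bp upstream of the start site with a signal of 51.0 and an IDR of 0.014, just outside the threshold. Replicate 1 had no ranked peak within 250 bp of that site, and in the list that compares the replicates the peak there had an IDR of 0.73. Just outside the Myc window, 5404 bp past the gene's 3′ end, lay a summit with a signal of 98.9.

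Max (FBgn0017578, 3L:19262232-19264184, minus strand), the shared partner of Myc and Mnt, had 2 conservative summits 724 bp apart. One lay 147 bp upstream of its start site at 3L:19264331, and the other in its intron 2 at 3L:19263607. Both positions are also promoters of the divergent genes Mettl5, an rRNA methyltransferase gene, and CG42374, which share start sites. The intronic summit was 159 bp upstream of one such site and the upstream summit 73 bp upstream of another. Position alone cannot assign either summit to Max or to its neighbours.

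The largest difference between the replicates among the 15 peaks was at the Max intron. That peak had a signal of 127.3, with 36.9 in replicate 1 and 92.5 in replicate 2, a difference of 1.33 on the log2 scale. The upstream peak had 106.1, with 38.3 and 63.9, a log2 difference of 0.74. Over all 3831 conservative peaks this difference had a median of 0.219, with 5th and 95th percentiles of -0.587 and 1.056, so the intronic Max peak lay above that range and the upstream one within it. In replicate 1 the ranked peaks at these places had IDRs of 0.82 and 0.052, and neither passed the threshold. Replicate 2 placed 4 thresholded summits in the Max window. Its other two were one of signal 58.9 at the promoter of nes, a lysophospholipid acyltransferase gene, and one of signal 4.8 at the Mettl5 promoter.

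Mnt (FBgn0023215, X:3671801-3701672, plus strand), the repressor of the network, held 8 conservative summits, all inside its 29.87 kb body. Of the 13945 genes, 29, Mnt included, had as many or more, which is 0.208%. Among the 666 genes with a window at least as long, 27 had as many, which is 4.05%. By the same measure Myc was ordinary, since 39.4% of genes with a window as long as its own had 2 or more, and so was Mondo, where 62.0% had at least 1. For Max and bigmax, with 2 summits each, the shares with as many were 21.0% and 18.1%. Mnt held 9 summits in the larger list, 4 in replicate 1 and 7 in replicate 2.

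**Figure D2:**
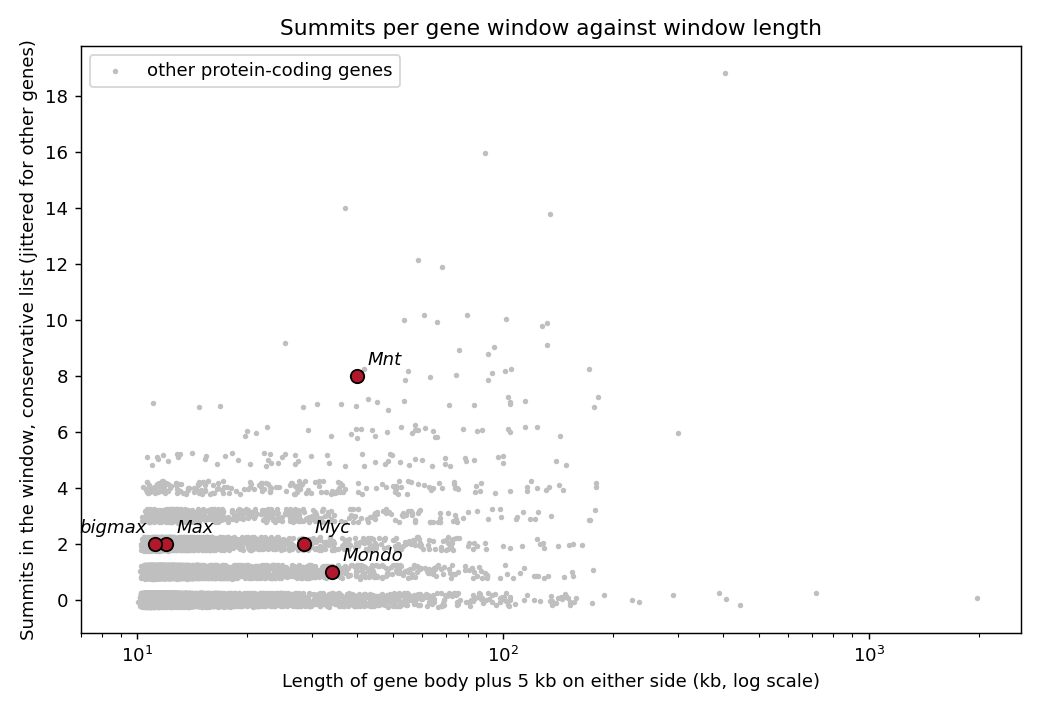
Number of conservative summits in the gene body plus 5 kb on either side against the length of that window, for all protein-coding genes (grey, jittered vertically) and the 5 members (red). Mnt, with 8 summits in 39.87 kb, stands above most genes of its length, while Myc, Max, Mondo and bigmax lie among the grey points.

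The Mnt summits fell into 3 stretches of the gene. The first stretch was intron 1 of the transcript that begins at the first start site, with summits 1057, 6206 and 6405 bp from the first start site. The second surrounded the inner start sites at X:3688235 and X:3689363, which begin 9 of the 10 annotated transcripts. Its summits were at X:3687120, X:3687991, X:3690827 and X:3692323, all in the 9.5 kb intron that ends at X:3692952. The last was a single summit at X:3694376 in the following intron.

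The strongest Mnt peak, at X:3687991, had a signal of 179.4, with 95.3 in replicate 1 and 80.0 in replicate 2. It overlapped thresholded peaks of both replicates and lay 244 bp upstream of the inner start site that begins 5 transcripts. That distance is close to the 250 bp that defines a promoter here. The summit of replicate 1 stood 274 bp upstream and that of replicate 2 stood 214 bp upstream, so Mnt counted as having a promoter summit in replicate 2 but not in replicate 1.

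The other strong Mnt peak, at X:3692323, had a signal of 176.0, with 90.5 in replicate 1 and 73.9 in replicate 2. In replicate 2 its ranked peak missed the threshold with an IDR of 0.01 as rounded, so it overlapped a thresholded peak of replicate 1 alone. The peak at X:3687120 had a signal of 104.7 and was found in both replicates, with 48.6 and 54.7. These peaks were thus of like height in each replicate, whether or not both passed the threshold.

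At 3 Mnt summits the peak passed the threshold in replicate 2 alone. X:3672858 had signals of 44.4 in replicate 1 and 54.5 in replicate 2. X:3690827 had 38.1 and 74.8, and X:3694376 had 32.5 and 53.7. All of these were lower in replicate 1. The reverse held at X:3678007, with 60.2 in replicate 1 and 54.5 in replicate 2, which passed in replicate 1 alone.

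The Mnt summit at X:3678206 was not an independent peak. It lay 199 bp from X:3678007, carried the same input peaks of both replicates, had a conservative signal of only 24.3 and was not in the larger list. Of all conservative peaks, 9.5% shared both inputs with another in this way. Counting the strongest of overlapping peaks left 7 at Mnt. The shares of genes with as many summits, given above, rest on the count of 8 and were not computed for 7. The larger list had further Mnt-window summits at X:3667435, with a signal of 70.0 at the promoter of Ilp7, an insulin-like peptide gene, and at X:3695567, with a signal of 92.7. The latter also passed in replicate 2, with a signal of 71.7.

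The first start site of Mnt, at X:3671801, had no thresholded peak. The best ranked peaks within 250 bp had signals of 5.2 in replicate 1 and 21.2 in replicate 2, with IDRs of 0.73 and 0.39. At the inner start site X:3689363, replicate 2 had a ranked peak 58 bp upstream with a signal of 42.2 and an IDR of 0.019, and replicate 1 had none.

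Mondo (FBgn0032940, 2L:21286078-21310050, minus strand), the sugar sensor, had 1 conservative summit, at 2L:21310376 and so 326 bp upstream of its first start site. That is outside the 250 bp promoter window, and the interval also leads to crc, the gene of the fly ATF4, whose start site was 490 bp away. The signal was 97.1, with 49.9 in replicate 1 and 37.7 in replicate 2. Replicate 1 passed the threshold at this place and replicate 2 did not, at an IDR of 0.11. The IDR of the conservative peak, 0.0083, was the highest among the 15. None of the 4 thresholded lists had a summit in the 23.97 kb Mondo body, where the 2 replicates had ranked peaks of at most 23.8 and 40.9, both near the start site at 2L:21309489.

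bigmax (FBgn0039509, 3R:27287366-27288526, minus strand), the partner of Mondo, had the strongest peak of the 15. It lay at 3R:27288689 in the 242 bp that separate the start sites of bigmax and Hmu, the hemomucin gene. The summit was 163 bp upstream of bigmax and 80 bp upstream of Hmu, and position alone cannot assign it to either gene. The signal was 181.3, with 83.7 in replicate 1 and 100.9 in replicate 2. The peak passed in both replicates, whose summits at 3R:27288688 and 3R:27288690 differed by only a few bases.

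The other bigmax peak lay 4182 bp upstream of the gene, at 3R:27292708 and 499 bp upstream of CG3348. It had a signal of 84.9, with 36.3 in replicate 1 and 52.4 in replicate 2, and passed the threshold in neither replicate alone. The bigmax body itself held no thresholded summit. On the far side, 6147 bp beyond the 3′ end and thus outside the window, lay a peak of signal 482.4.

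**Figure D3:**
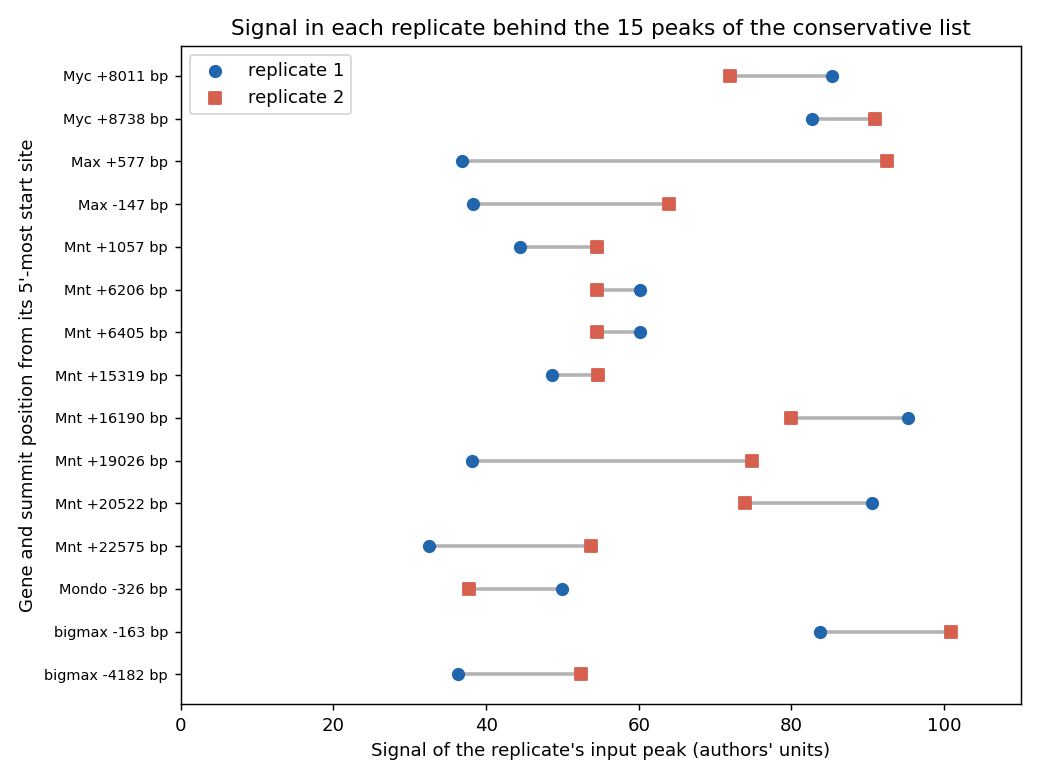
Signal of the input peak of replicate 1 (circles) and replicate 2 (squares) behind each of the 15 conservative peaks, named by gene and by distance of the summit from the 5′-most start site. The Myc pair, the Mnt peaks at +16190 and +20522 bp and the bigmax peak at -163 bp were above 70 in both replicates. Both Max peaks, the Mnt peaks at +19026 and +22575 bp and the bigmax peak at -4182 bp were below 40 in replicate 1.

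Taking the 15 peaks together, 5 overlapped thresholded peaks of both replicates, 3 of replicate 1 alone, 5 of replicate 2 alone and 2 of neither. Among all conservative peaks these shares were 53.2%, 9.79%, 18.8% and 18.2%. The 5 found in both were the Myc pair, the Mnt peaks at X:3687120 and X:3687991 and the bigmax peak at the Hmu border. The median signal of the 15 was 108.2 (quartiles 95.9 and 162.8), beside 126.2 (94.1 and 199.4) over all conservative peaks. The members' peaks were thus of middling height for this experiment, and none came close to the peak of signal 482.4 beyond bigmax.

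By position, 9 of the 15 summits were in introns outside any promoter window, 4 were within 250 bp of a start site and 2 were intergenic. All 9 intronic ones belonged to Myc and Mnt. Over all conservative peaks 45.6% were intronic, 33.1% at promoters and 17.3% intergenic. Max, Mnt and bigmax, 3 of the 5 genes, had a summit within 250 bp of their own start site, against 10.2% of protein-coding genes. In replicate 1 only bigmax had one, where 8.18% of genes did, and in replicate 2 it was Max, Mnt and bigmax again, where 10.8% did. None of the 3 lay within 100 bp, a distance at which the share of all genes was not computed.

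The E box that the proteins of this network bind was not found within 50 bp of any of the 15 summits. It was also scarce elsewhere, at 0.783% of all conservative summits. In the whole 350 bp peaks, CACGTG occurred at 2 of the 15, the Max intronic peak and the Mnt inner promoter peak, beside 3.65% of all. At Max it was centred 153 bp from the summit, beside the Mettl5 start site, and at Mnt 93 bp from it, and both are in capitals in the sequences above. A match is only a run of letters, and says nothing of which protein was bound there.

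Of the other motifs within 50 bp of the summit, TATAAA occurred at 3 of 15 summits, beside 22.7% of all, and CGATA at 3 of 15, beside 12%. The CGATA matches were at both Myc summits and at the Mnt summit X:3678007. GAGAG, present at 10.3% of all summits, occurred at none, and neither did CACGCG (1.25% of all), TATCGATA (0.783%), GGTCACAC (0.47%) or CAGGTAG (0.444%). Further out GAGAG was not lacking, with 4 of 15 summits having it within 100 bp, beside 23.3% of all. In the whole peaks it was at 9 of 15, beside 36.7%. Within 50 bp, any of the 8 was found at 5 of 15, beside 41.8% of all. The sequences at the summits were rich in A and T, with GC contents from 20.8% at the distal bigmax summit to 41.6% at the secondary Mnt summit, around the median of 31.7% for all. Words of 6 bases that were commoner at the other conservative summits than in windows 300 bp to each side were of the same kind. The word with the largest difference in percentage points, AAATAT, was at 33.9% of other summits and 15.4% of flanking windows, and at 3 of the 15 member summits.

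Genes known to work with or under the network were examined for summits within 250 bp of a start site, where 10.2% of all protein-coding genes had one in the conservative list. Of 15 regulators and partners of Myc, 2 had a summit in the conservative list, 3 in the larger list, 2 in replicate 1 and 3 in replicate 2. The shares of all protein-coding genes were 13.4% in the larger list, 8.18% in replicate 1 and 10.8% in replicate 2. Those in the conservative list were sgg, the GSK-3 kinase gene, at a signal of 433.8 (181.1 in the list of replicate 1 and 240.8 in that of replicate 2), and Gcn5, a histone acetyltransferase gene, at 349.7 (164.6 and 180.3). Both were far above every peak at the 5 network genes. The Gcn5 summit was also within 250 bp of a start site of ver.

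Of 12 genes of the sugar response of Mondo and bigmax, 3 had a summit in the conservative list, where 10.2% of all protein-coding genes had one. Men, the malic enzyme gene, had a signal of 133.7, Gpdh1, the glycerol-3-phosphate dehydrogenase gene, 102.5, and ACC, the acetyl-CoA carboxylase gene, 72.6. Only Gpdh1 was found in replicate 1, at 39.3, while all 3 were found in replicate 2. The larger list held 2 of the 12, Men and Gpdh1 but not ACC, beside 13.4% of all genes. Of 20 nucleolar and RNA polymerase I genes, a class that Myc activates, 2 had a summit in the conservative list, beside 10.2% of all genes. They were Surf6 at 86.6 and Nopp140 at 80.7. The larger list held 2, Surf6 and peng, beside 13.4%, and replicate 2 held 2, Nopp140 and Fib, beside 10.8%. Replicate 1 held 0, beside 8.18%, so Surf6 had a promoter summit in neither replicate's list. The peng summit was also within 250 bp of a start site of sol, and the Fib summit within 250 bp of one of CG3085. The Surf6 summit was also within 250 bp of a start site of RhoGAP92B. Of 10 other bHLH or bHLH-PAS factors and partners that act through E boxes or similar sites, 2 had a summit in each thresholded list. The shares of all genes were 10.2% in the conservative list, 13.4% in the larger list, 8.18% in replicate 1 and 10.8% in replicate 2. These 2 were tai, at a conservative signal of 229.7, and da, at 150.3, and both were found in each replicate. The tai summit was also within 250 bp of a start site of CG9586. With so few genes a list, each gene moves a share by several percent.

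**Figure D4:**
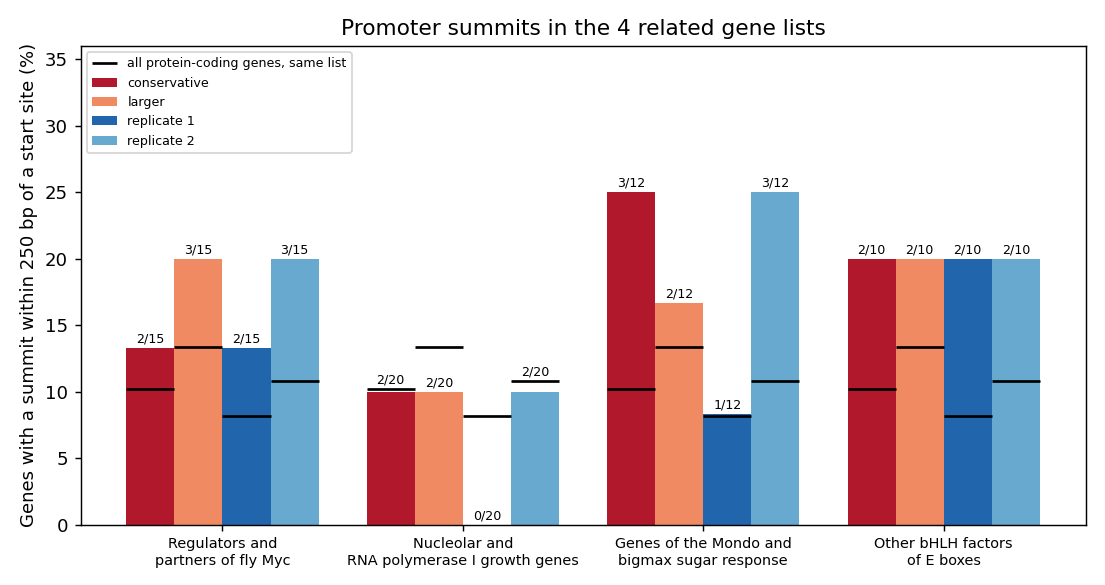
Share of each related gene list with a summit within 250 bp of a start site, for the conservative and larger lists and the lists of replicate 1 and replicate 2, with the number of genes above each bar. The black line across each bar is the share of all protein-coding genes in the same list, 10.2%, 13.4%, 8.18% and 10.8%. The nucleolar list lies close to its line in the conservative list and at 0 in replicate 1.

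Genes with the same number of summits in each of the 4 lists and the nearest summed conservative signal were taken as those most alike in pattern. For Myc, 39 genes had the same counts, and with a summed signal of 325.6 the nearest were botv (325.6), p24-1 (304.2) and didum (302.0). Max, at 233.3, had 1 such gene, Ugt37C1 (105.3), and Mnt, at 892.4, had 0. For bigmax (266.2), 143 genes had the same counts and the nearest were Rint1 and mrva (264.4 each) and CG5254 (268.8). For Mondo (97.1) there were 203, the nearest being CG5567, CG5577 and Grd, which have the same summed signal of 97.1. These Mondo matches all lie on 3L, as do Rint1 and mrva. Genes of equal summed signal there may hold the same peaks, and need not be separate cases.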

How the data were processed

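Chromatin immunoprecipitation from whole embryos was sequenced in 2 biological replicates of 1 group, numbered per the labels. The authors deposited peak lists on dm6, per the labels. No source used here names the aligner or the caller. The signal of each peak was deposited as the authors' caller gave it, with no scaling stated. The deposited score encodes the IDR, and the authors' ranked list gives its −log10. That list also gives the input peaks of each conservative peak: 99.7% of first inputs were ranked peaks of replicate 1 and 99.8% of second inputs were ranked peaks of replicate 2, by exact coordinates. The other ranked list of the series matched neither replicate and was not used.

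From these files, summits on the main chromosomes were assigned to Ensembl BDGP6.54 genes (release 115) with pandas 2.3.3, and sequence was read from the RefSeq Release 6 assembly, the same assembly as dm6. No peak ended past a chromosome end. Positions count from 1. A promoter was 250 bp on either side of any start site. A summit outside all promoters was first called by any untranslated region or coding exon that covered it. Otherwise it was intronic where any covering transcript had no exon there, and in another exon if all had one. It was intergenic where no transcript covered it. Peaks overlapped when at least 50% of the shorter was covered. The assignment was tested on simulated data. Genes and gene lists were chosen with earlier results of these data known. Named were the members, genes with a start site within 250 bp of, or a body over, a member summit, up to 4 genes of highest signal in each related list, and the 3 genes nearest in pattern. The 6-base words, the ranked peaks below the threshold, crc, CG3348 and the list members' replicate signals were added after values were seen. No statistical test was run.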

Additional observations from a re-analysis of the deposited data

How the results depend on the processing

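The count of 15 conservative summits at the 5 genes ranged from 8 to 14 when either replicate was left out, that is, when the other replicate's own list was used. It was 5 at an IDR of 0.001 or less, where the share of all conservative peaks that remain was not reported, so the fall is not particular to these genes. Flanks of 2 kb or 10 kb, the gene body alone, the larger list, an IDR of 0.05, any overlap of the peak and the strongest of overlapping peaks gave values between 11 and 18. The number of genes with a promoter summit was 0 within 100 bp, and ranged from 1 to 3 with a replicate left out. The number of member peaks found in both replicates was 5, and 14 when ranked peaks below the threshold were counted. That second count was nearly fixed in advance, since 99.7% and 99.8% of conservative peaks have ranked peaks of replicates 1 and 2 as inputs. It is no measure of how well the replicates repeat. The number with any searched motif was 5, 12 within 100 bp of the summit and 15 in the whole peak, where 67.7% and 79.0% of all peaks had one. Within 100 bp, 0 regulators of Myc, 1 nucleolar gene, 1 sugar-response gene and 0 other bHLH genes had a summit. The share of all protein-coding genes with a summit within 100 bp was not computed. These counts, and that of the 5 genes at 100 bp, thus have no background beside them. With a replicate left out, the regulators gave 2 to 3, the nucleolar genes 0 to 2, the sugar-response genes 1 to 3 and the other bHLH genes 2 to 2. The 2 nucleolar genes of replicate 2, Nopp140 and Fib, were not the same pair as in the conservative list. The count of intronic peaks stayed between 6 and 11 in every alternative tried. For these changes the cause was not tested. No paired analysis was possible because there is only 1 group. Read depth is unknown and no control was analysed here, so no peak could be set against background.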

Other observations

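The comparison of the replicates listed 47 ranked peaks in the Myc window, 18 at Max, 50 at Mnt, 13 at Mondo and 19 at bigmax, those of the conservative list included. The peak of lowest IDR that was not in the conservative list was at an IDR of 0.025 for Mnt (X:3695773), 0.052 for Mondo (2L:21309394, 95 bp inside the start site at 2L:21309489), 0.066 for bigmax (3R:27282476), 0.1 for Myc (X:3394345) and 0.19 for Max (3L:19260604). The Mnt summit among these had a signal of only 5.9 and lay near the larger-list summit at X:3695567. Beyond the E boxes, the whole peaks held TATCGATA at Mondo, 127 bp from the summit, and at bigmax, 86 bp from it. Over all conservative peaks 2.95% held it. CAGGTAG (1.49% of all) occurred 56 bp from the Mnt summit X:3687120 and GGTCACAC (2.74%) 72 bp from the upstream Max summit. CACGCG (6.73%) lay 134 bp from the Mnt summit X:3692323. Of the commoner motifs, CGATA was in 10 of the 15 whole peaks (33.9% of all), GAGAG in 9 (36.7%) and TATAAA in 6 (42.9%). The Mnt peaks at X:3678007 and X:3678206 overlap, and the TATAAA and CGATA matches they share were counted in both.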
